A study of Mus musculus with 6 samples.

Results

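The cohesin machinery of dividing cells was examined through 10 genes: the ring subunits Smc1a, Smc3 and Rad21, the alternative accessory subunits Stag1 and Stag2, the loader Nipbl, the release factors Wapl and Pds5b, and the acetyltransferases Esco1 and Esco2. Rows of the table were taken by gene symbol, with no threshold on their values, and all 10 genes were among the 10128 genes of the authors' deposited table. RNA had been sequenced from mouse embryonic stem (ES) cells of the 129/Ola strain that derive from the E14Tg2a line and were kept on gelatin in medium with serum and leukaemia inhibitory factor. One group of 3 libraries came from Tex19.1+/- cells, which keep a single working copy of Tex19.1, and the other 3 came from Tex19.1-/- cells, which have none. The reference group is therefore heterozygous, not wild type. The labels do not say whether libraries of a genotype came from separate clones or cultures, so the p-values measure the spread between these libraries, which may be technical.

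Cohesin is a ring of SMC1, SMC3 and a kleisin subunit, here RAD21, that a STAG protein completes. It holds sister chromatids together from replication to anaphase and forms chromatin loops in interphase. NIPBL with MAU2 loads the ring onto DNA, WAPL with PDS5 opens it, and ESCO1 and ESCO2 acetylate SMC3, which makes the ring resistant to WAPL. Tex19.1 encodes a mammal-specific protein of germ cells and pluripotent cells that binds the ubiquitin ligase UBR2, and published work on it in mouse oocytes concerned acetylated SMC3 cohesin and the N-end rule pathway, a route of protein degradation that reads a protein's first residue. The question put to the RNA data here is whether the transcripts of this machinery differ between ES cells with and without Tex19.1. The table holds RNA only. Protein amounts and the acetylation of SMC3 were not analysed here.

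The acetylation that the question turns on sits on a pair of neighbouring lysines in the head of SMC3. The stretch of Smc3 that encodes them lies in exon 6 of the transcript ENSMUST00000025930.9, at chr19:53618479-53618544 on the plus strand (GRCm38), and is shown because ESCO1 and ESCO2 act on its product. Capitals mark codons 105 and 106, the 2 lysines.
Smc3: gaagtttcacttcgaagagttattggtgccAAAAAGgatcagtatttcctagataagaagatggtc
Separase, the protease that opens cohesin at anaphase, cuts RAD21, and the fragment after the cut begins with a new first residue, the feature that the N-end rule pathway reads. The stretch of Rad21 that encodes the first separase site comes from the transcript ENSMUST00000022927.10 on the minus strand of chromosome 15. It spans 2 exons between 51973234 and 51973843 (GRCm38), so its 66 bases are joined across an intron. Capitals mark codons 167 to 172, after which separase cuts.
Rad21: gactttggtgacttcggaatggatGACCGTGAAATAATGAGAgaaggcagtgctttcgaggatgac
Both stretches are read from GENCODE transcripts, not from these libraries.

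The authors' deposited table gives 1 log2 fold change, 1 mean level, 1 p-value and 1 adjusted p for each gene over the 6 libraries. Values of single libraries, their depth and their spread were not used here, so no standard deviation can be printed. Approximate 95% intervals were instead worked back from each deposited fold change and p-value. The table does not name the direction of its fold changes. They are read as Tex19.1-/- over Tex19.1+/-, since Tex19.1 has the lowest value of all genes, -6.92 in the authors' deposited table. Of 10 ES cell markers all were measured, at 192.1 to 1566 CPM (read counts scaled to library size), and their levels summed to 6659 CPM in Tex19.1+/- and 6520 CPM in Tex19.1-/- cells. These sums are weighted to the markers with the highest levels, up to 1566 CPM. At an adjusted p under 0.05, single ES cell markers went both ways, with 4 higher, 3 lower and 3 not past it. They ran from 0.36 for Zfp42 to -0.20 for Klf4 in the authors' deposited table. Among all genes 25.2% were higher and 26.5% lower at that threshold. Levels by genotype are computed from the deposited mean and fold change, taking the mean as the plain mean of both groups. Markers of endoderm, a lineage that arises in ES cell cultures by differentiation, moved with genotype. Their 10 measured members of 13 all fell, and their levels summed to 812 CPM in Tex19.1+/- and 314 CPM in Tex19.1-/- cells, while Sox17, Foxa2 and Afp are not among the genes analysed here. Of 15 markers of fibroblasts and feeder cells 3 were measured, Fn1, Vim and Fbn1, and these are not particular to such cells, while Col1a1, Col1a2, Col3a1 and Thy1 were not analysed here. Fn1 rose, at 0.23, and Vim at -0.33 and Fbn1 at -0.76 fell in the authors' deposited table. Their levels summed to 1035 CPM in Tex19.1+/- and 1123 CPM in Tex19.1-/- cells, a sum that is mostly Fn1, whose mean was 865 CPM. The part of other cells in the changes of cohesin transcripts was not tested, and in bulk RNA fewer cells of a type and less RNA per cell cannot be told apart.

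Cohesin transcripts differed little between the genotypes. Stag1 and Smc1a were higher in Tex19.1-/- cells, Esco1, Nipbl and Esco2 were lower, and Smc3, Wapl, Stag2, Rad21 and Pds5b did not pass the threshold, which is 0.05 for the adjusted p of the authors' deposited table. So 5 of 10 members were called, beside 51.7% of all genes in the table, and the members' share is near that background. The 2 called higher stand beside 25.2% of all genes and the 3 called lower beside 26.5%. Among the 4778 genes whose mean level lies within the range of the 10 members, the corresponding shares were 53.1% in either direction, 28.1% higher and 24.9% lower. In size, all 10 changes lay between -0.19 and 0.18 on the log2 scale, and 0 of them reached 0.2, which 29.2% of all genes did. The median absolute log2 fold change was 0.09 for the members, 0.11 for all genes and 0.10 for genes within the members' range of level. The median signed log2 fold change was -0.06 for the members and 0.00 for all genes, with 7 members below 0 and 3 above. At a stricter adjusted p of 0.01 the calls of Smc1a and Esco2 ended, and with Bonferroni adjustment over all genes 0 of the 10 members passed.

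**Figure D1:**
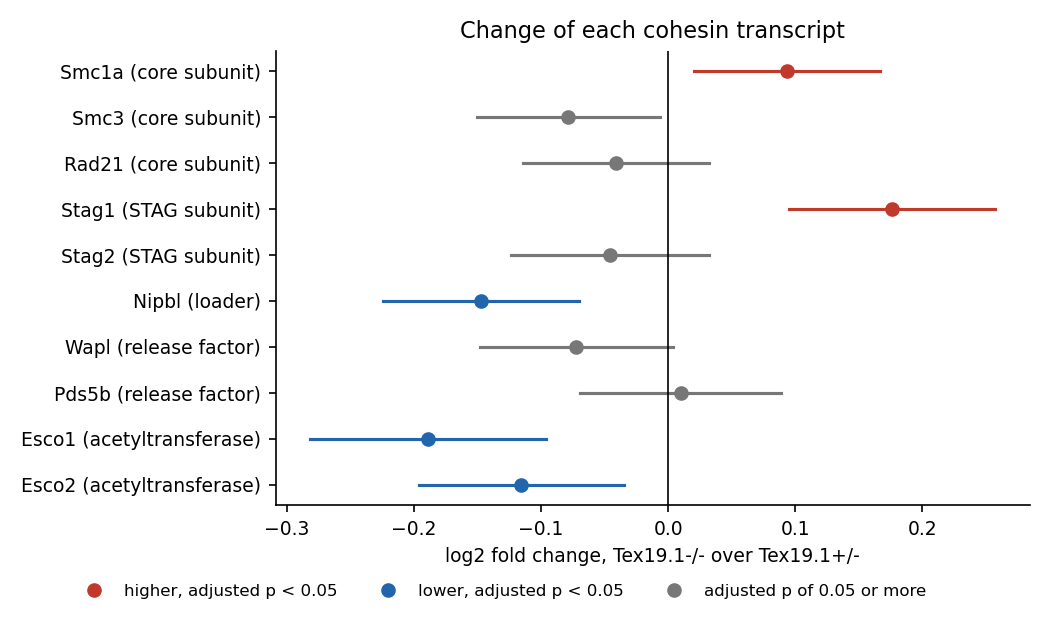
Log2 fold change of each cohesin transcript, Tex19.1-/- over Tex19.1+/- (points), with approximate 95% intervals worked back from the deposited p-values (lines) and colours for the call at an adjusted p of 0.05. The 5 called transcripts have intervals clear of 0, Smc3 ends just short of 0, and no point lies beyond 0.19 in size.

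**Figure D2:**
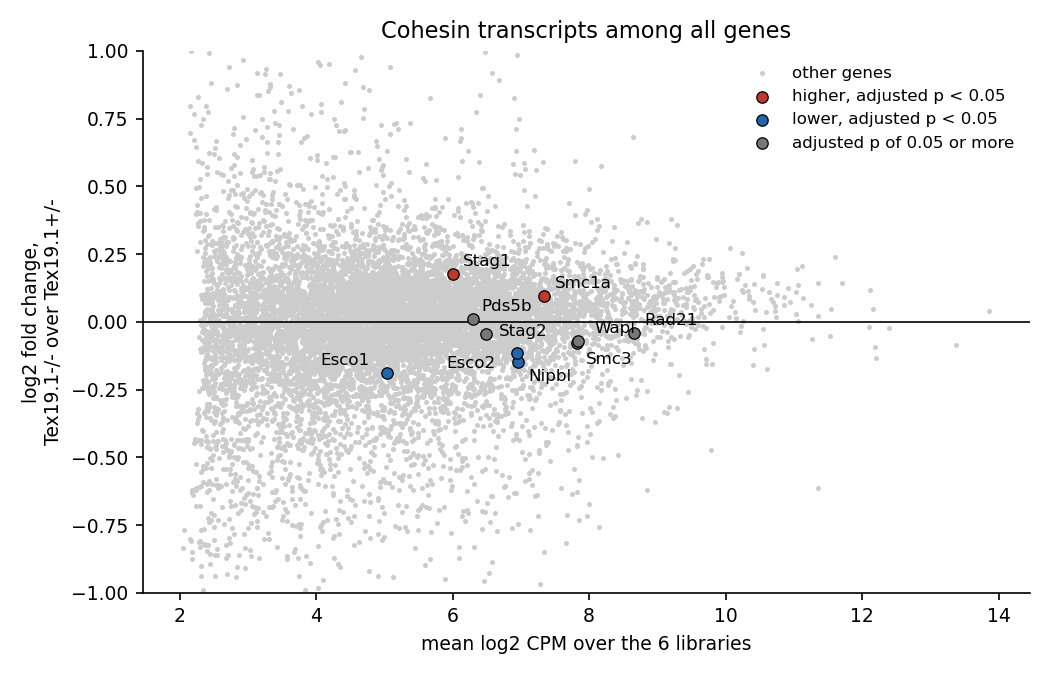
Mean log2 CPM over the 6 libraries (x axis) against log2 fold change (y axis) for the authors' deposited table, with the 10 cohesin transcripts as large points. The 148 genes beyond 1 in size are not drawn, and the cohesin transcripts lie inside the main cloud.

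Of the 3 subunits that form the ring, only Smc1a passed the threshold. Smc1a encodes the X-linked partner of SMC3 and stood at about 157 CPM in Tex19.1+/- and 168 CPM in Tex19.1-/- cells. It rose by 6.69% (approximate 95% interval 1.40% to 12.3%), a log2 fold change of 0.09 with an adjusted p of 0.0270 in the authors' deposited table. Smc3, the acetylated subunit, stood at about 233 CPM in Tex19.1+/- and 221 CPM in Tex19.1-/- cells. Its log2 fold change was -0.08 with an adjusted p of 0.0611 in the authors' deposited table, which misses the threshold. The interval of its change, taken without adjustment for the number of genes, ran from -9.92% to -0.45%. Rad21, the kleisin that separase cuts, had a log2 fold change of -0.04 and an adjusted p of 0.369 in the authors' deposited table. Its level was about 408 CPM in Tex19.1+/- and 397 CPM in Tex19.1-/- cells, with an interval of -7.63% to 2.28% for the change. Set against each other, the log2 fold change of Smc1a exceeded that of Smc3 by 0.17 (approximate 95% interval 0.07 to 0.28, with the errors of the 2 genes taken as independent). No background of other gene pairs was computed for this difference. Added together per kilobase of transcript, Smc1a and Smc3 came to 81.7 CPM per kb in Tex19.1+/- and 81.3 CPM per kb in Tex19.1-/- cells, a difference of -0.38%. The ring holds both subunits and neither takes the place of the other, so this sum does not measure an amount of rings.

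Of the mitotic STAG subunits, Stag1 rose and Stag2 did not pass the threshold. STAG1 and STAG2 take the same place in the ring, so each complex holds one or the other, and STAG3 takes that place in meiotic cohesin. Stag1 stood at about 60.1 CPM in Tex19.1+/- and 68.0 CPM in Tex19.1-/- cells. It was 13.0% higher (interval 6.79% to 19.5%), with a log2 fold change of 0.18 and an adjusted p of 8.4e-05 in the authors' deposited table. That p was the smallest among the 10 members. Stag2, on the X chromosome, stood at about 91.7 CPM and 88.8 CPM, with a log2 fold change of -0.05 and an adjusted p of 0.346 in the authors' deposited table. The change of Stag1 exceeded that of Stag2 by 0.22 on the log2 scale (interval 0.11 to 0.33). How often other pairs of genes differ by as much was not computed. Per kilobase, Stag1 made up about 39.6% of the sum of the pair in Tex19.1+/- and 43.3% in Tex19.1-/- cells.

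The meiotic paralog Stag3 had a larger change than any mitotic member, at -0.77 on the log2 scale with an adjusted p of 1.56e-66 in the authors' deposited table. Its mean level over both genotypes, 9.61 CPM per kb, was close to that of Stag1 at 10.4 CPM per kb. By genotype, Stag3 lay above Stag1 in Tex19.1+/- cells, at 12.1 beside 9.72 CPM per kb. In Tex19.1-/- cells it lay below, at 7.09 beside 11.0 CPM per kb. As a share of all STAG transcripts, Stag3 went from 33.0% to 21.8%, Stag1 from 26.5% to 33.8% and Stag2 from 40.5% to 44.3%. A share rises when another member falls. Stag2 itself stood at 14.9 CPM per kb in Tex19.1+/- and 14.4 CPM per kb in Tex19.1-/- cells. Stag3 is the only member of the family called lower. The 3 together came to 36.7 CPM per kb in Tex19.1+/- and 32.5 CPM per kb in Tex19.1-/- cells, a difference of -11.5%. These shares depend on the transcript length assumed. With the length of all annotated exons in place of the longest coding transcript, Stag1 held 23.2%, Stag2 46.6% and Stag3 30.2% of the family's mean level. Rec8, the meiotic kleisin, was also called lower, at -0.22 with an adjusted p of 0.00268 in the authors' deposited table. Among all genes 26.5% were called lower. The mean of Rec8 was 10.5 CPM, where the median gene had 33.0 CPM. Rec8 lies on chromosome 14, whose measured genes had a median log2 fold change of -0.12. Rec8 made up 4.78% of the sum of Rad21 and Rec8 per kilobase in Tex19.1+/- and 4.25% in Tex19.1-/- cells. Rad21 thus supplied nearly all RNA of this pair in both. Of 6 listed meiotic genes 2 were measured, and Smc1b and Rad21l were not analysed here.

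Of the loader and release factors, Nipbl alone passed the threshold. Nipbl encodes the large subunit of the loader and stood at about 130.9 CPM in Tex19.1+/- and 118 CPM in Tex19.1-/- cells. It fell by 9.72% (interval -14.4% to -4.76%), with a log2 fold change of -0.15 and an adjusted p of 0.000575 in the authors' deposited table. Its partner Mau2 had a log2 fold change of 0.02 and an adjusted p of 0.681 in the authors' deposited table. The 2 loader transcripts thus differed in change by -0.17 on the log2 scale (Nipbl minus Mau2, interval -0.27 to -0.06). Wapl, which opens the ring, stood at about 234 CPM and 222 CPM, with a log2 fold change of -0.07 and an adjusted p of 0.107 in the authors' deposited table. Pds5b encodes a ring-associated scaffold that WAPL and sororin bind, and it stood at 78.2 CPM and 78.8 CPM. Its log2 fold change was 0.01, with an adjusted p of 0.858 in the authors' deposited table and an interval of -4.68% to 6.35%. The paralog Pds5a stood at 0.01 as well (adjusted p = 0.833 in the authors' deposited table). The change of Nipbl less that of Wapl was -0.08 on the log2 scale, and the interval of that difference, -0.18 to 0.03, includes 0.

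Both acetyltransferase transcripts were lower in Tex19.1-/- cells, beside 26.5% of all genes called lower. Esco2 lies on chromosome 14, whose measured genes had a median log2 fold change of -0.12. Esco1, the enzyme that acetylates SMC3 through the cell cycle, stood at about 35.0 CPM in Tex19.1+/- and 30.7 CPM in Tex19.1-/- cells. It fell by 12.3% (interval -17.7% to -6.45%), with a log2 fold change of -0.19 and an adjusted p of 0.00023 in the authors' deposited table. Esco2, the enzyme tied to DNA replication, stood at about 127.7 CPM and 118 CPM. It fell by 7.69% (interval -12.7% to -2.40%), with a log2 fold change of -0.12 and an adjusted p of 0.0115 in the authors' deposited table. The difference between the 2 changes, -0.07 on the log2 scale (Esco1 minus Esco2), had an interval of -0.20 to 0.05, which includes 0. Added per kilobase, the 2 enzymes came to 51.5 CPM per kb in Tex19.1+/- and 47.2 CPM per kb in Tex19.1-/- cells, a difference of -8.37%. Esco2 made up about 85.1% of that sum in Tex19.1+/- and 85.7% in Tex19.1-/- cells, or 74.2% of the mean level with the length of all annotated exons.

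The list of cohesin cofactors holds 2 genes that act on acetylated SMC3. Hdac8, the deacetylase that recycles SMC3, was measured at 6.42 CPM, where the median gene had 33.0 CPM. It had a log2 fold change of 0.24 with an adjusted p of 0.00932 in the authors' deposited table. The approximate 95% interval of that log2 fold change, 0.08 to 0.40, was wider than that of any member. Cdca5, which encodes sororin, the protein that protects acetylated cohesin from WAPL, was at 0.12 with an adjusted p of 0.0102 in the authors' deposited table. These 4 genes were set side by side for their known roles and with their values known, they form no list that was tested, and 51.7% of all genes were called. At an adjusted p of 0.01 neither Esco2 nor Cdca5 passed. Whether SMC3 acetylation in these cells follows these RNA levels was not tested.

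Levels differed far more between the genes than between the genotypes. Per kilobase of the longest coding transcript, Rad21 had the highest mean, 101.7 CPM per kb, followed by Smc3 at 46.8, Esco2 at 42.1, Wapl at 35.9 and Smc1a at 34.7 CPM per kb. The lower group held Stag2 at 14.6, Nipbl at 13.2, Pds5b at 10.6, Stag1 at 10.4 and Esco1 at 7.22 CPM per kb. The span from Esco1 to Rad21 was 14.1-fold, against changes between genotypes of 13.0% at most. Neighbours in this order such as Wapl and Smc1a, or Pds5b and Stag1, lie close together, and without values per library their order cannot be tested. It also depends on length: per kilobase of all annotated exons Esco2 came to 18.5 CPM per kb, below Smc1a at 28.2, and Stag1 at 5.44 came below Esco1 at 6.44. In plain CPM 9 of the 10 lay above the median gene of the table, which had 33.0 CPM, and Esco1 at 32.8 CPM lay just under it.

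**Figure D3:**
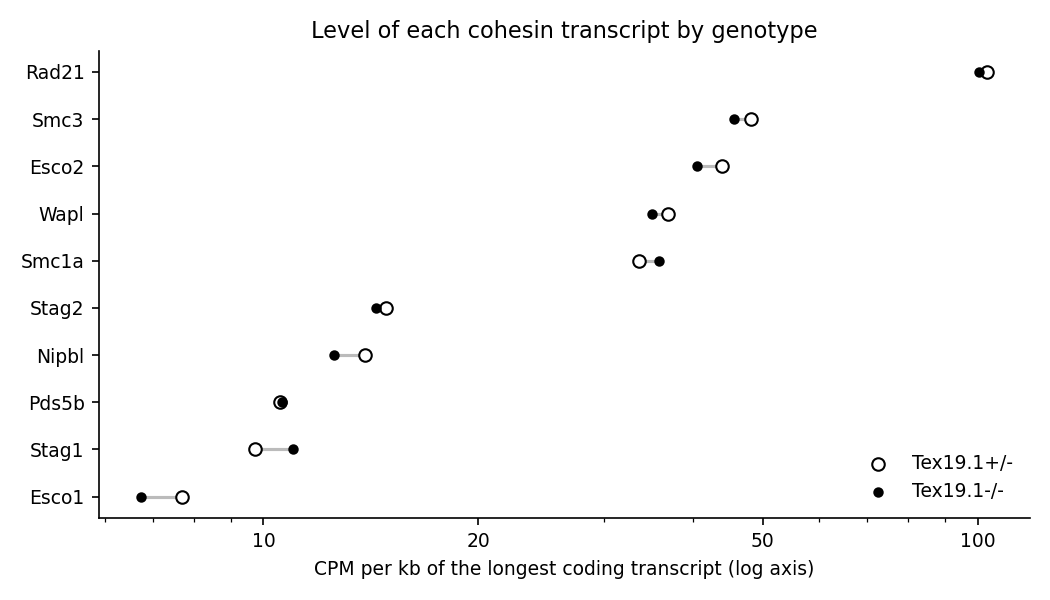
Level of each cohesin transcript in CPM per kb of its longest coding transcript (x axis, log scale), for Tex19.1+/- (open) and Tex19.1-/- cells (filled), each computed from the deposited mean and fold change. Smc1a and Wapl swap places between the genotypes, as do Stag1 and Pds5b, and the other genes keep their order, from Rad21 at about 100.3 to 103.2 CPM per kb down to Esco1 at 6.75 to 7.69 CPM per kb.

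Genes listed as cohesin cofactors showed small changes in both directions. Of 17 measured genes, most of which load, protect, cut or position cohesin, 5 rose, 3 fell and 9 did not pass. Their median log2 fold change was 0.01. The called share of 47.1% is near the 51.7% of all genes. Those that rose, beside Hdac8 and Cdca5, were the phosphatase scaffold gene Ppp2r1a at 0.16, the checkpoint kinase gene Bub1 at 0.15 and the mitotic kinase gene Plk1 at 0.12 in the authors' deposited table. Those that fell were the phosphatase subunit gene Ppp2r5a at -0.40, the deubiquitinase gene Usp37 at -0.10 and Sgol2a, a shugoshin that shields centromeric cohesin, at -0.09 in the authors' deposited table. The fall of Ppp2r5a was the largest of that list, with an adjusted p of 1.65e-18 in the authors' deposited table. Sgol1 at -0.08, the mitotic kinase gene Aurkb at 0.08, the loop anchor gene Ctcf at 0.07, the securin gene Pttg1 at -0.08 and the separase gene Espl1 at 0.00 did not pass in the authors' deposited table. Mau2, Pds5a, Slf2 at -0.02 and Zfp609 at -0.02 complete the 9 that did not pass in the authors' deposited table. No gene of that list other than Ppp2r5a exceeded 0.24 in size.

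Cohesion is set up at the replication fork. The list of fork genes includes many that serve replication in general, and 19 genes were measured. Of these 8 rose, 0 fell and 11 did not pass, a called share of 42.1% with a median log2 fold change of 0.06, beside the 25.2% higher and 26.5% lower among all genes. The smallest p-values belonged to the sliding clamp gene Pcna at 0.68, the clamp loader genes Rfc4 at 0.20 and Rfc3 at 0.13, and the helicase subunit gene Mcm5 at 0.11 in the authors' deposited table. PCNA recruits ESCO2 to the fork, and the RNA of the 2 genes differed in sign. Pcna, on chromosome 2, had the largest change of its list, and its neighbours in gene order were not read. Whether the 2 changes are linked was not tested. Condensin and SMC5/6 share the ring design of cohesin, and their list also holds Smchd1, an SMC-related gene of neither complex. Of its 15 genes 5 rose, Smchd1 at 0.11 among them in the authors' deposited table, and 1 fell, a called share of 40.0% with a median of 0.04. Nsmce2 at 0.33, Smc6 at 0.16 and Ncapg at 0.12 rose and Ncapd2 at -0.14 fell in the authors' deposited table. All of these lists were compiled with earlier results of these data known, and no list was tested as a set.

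**Figure D4:**
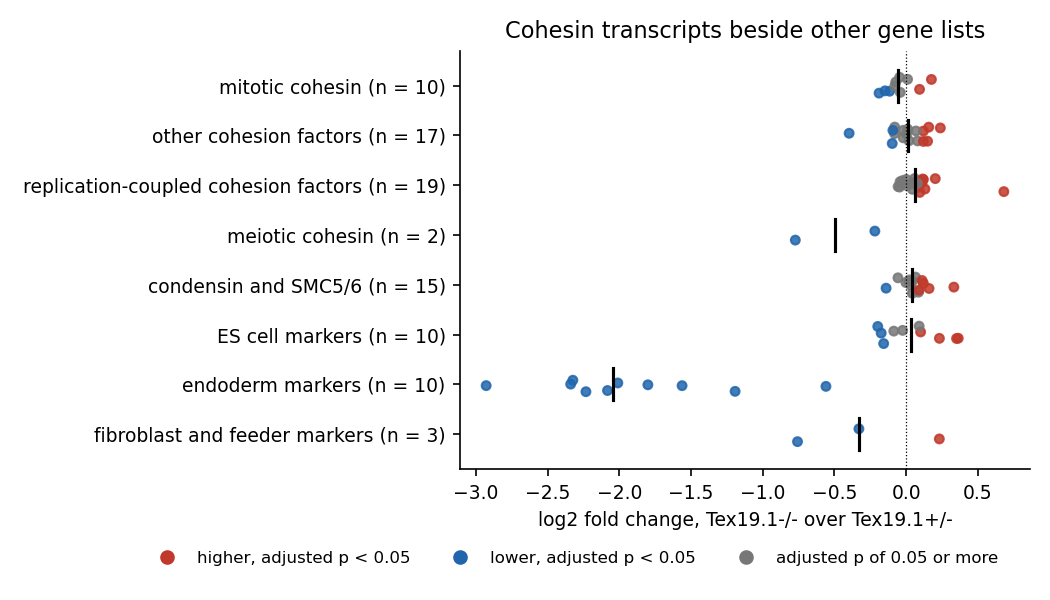
Log2 fold change (x axis) of each measured gene, by list (rows, with the number of genes), coloured by the call at an adjusted p of 0.05, with black bars for medians. In the first 3 lists and in condensin and SMC5/6 all genes but Ppp2r5a at -0.40, Nsmce2 at 0.33 and Pcna at 0.68 lie within 0.24 of 0, while the 10 endoderm markers lie between -2.93 and -0.56.

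The 10 genes lie on 7 chromosomes, and their neighbours in gene order were read beside them, up to 10 measured genes on each side (GRCm38, GENCODE). Esco2, on chromosome 14 from 65819038 to 65833994, stood among genes that were mostly lower. Of its 20 neighbours 12 fell and 2 rose, beside 26.5% called lower and 25.2% called higher among all genes. The neighbours had a median log2 fold change of -0.17, and Esco2 at -0.12 was less negative than that median. The 363 measured genes of chromosome 14 had a median of -0.12 as well, the value of Esco2 itself. Nipbl, on chromosome 15 from 8290617 to 8444463, differed in sign from most of its surroundings. There 13 of its 20 neighbours rose and 3 fell, beside the same shares of all genes, with a median of 0.11 beside its own -0.15. Stag1, on chromosome 9 from 100597798 to 100959375, had neighbours with a median of -0.00 beside its own 0.18. Esco1, on chromosome 18 from 10566507 to 10610352, had neighbours with a median of -0.03, spread from -2.32 for the endoderm factor gene Gata6 to 1.12.

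Of the other members, 5 lay within 0.05 of the median of their neighbours and Smc3 did not. Of these 5, only Smc1a passed the threshold. The share of all genes that lie so close to their neighbours was not computed. Smc1a, on the X chromosome from 152016428 to 152062694, had neighbours with a median of 0.06 beside its own 0.09, on a chromosome whose 315 measured genes had a median of 0.07. Stag2, on the same chromosome from 42149317 to 42277185, stood at -0.05 beside a neighbour median of -0.00. Smc3, on chromosome 19 from 53600398 to 53645833, stood at -0.08 beside a neighbour median of 0.06, 0.13 lower. Rad21 (chromosome 15, 51962240 to 51991747), Wapl (chromosome 14, 34673928 to 34747983) and Pds5b (chromosome 5, 150673739 to 150810690) differed by 0.05 or less from the medians of their neighbours, which were 0.01, -0.02 and 0.03. Wapl stood at -0.07 on chromosome 14, whose measured genes had a median of -0.12. Pds5b lies near the end of its chromosome and has 11 measured neighbours. What neighbours share with each member was not tested.

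**Figure D5:**
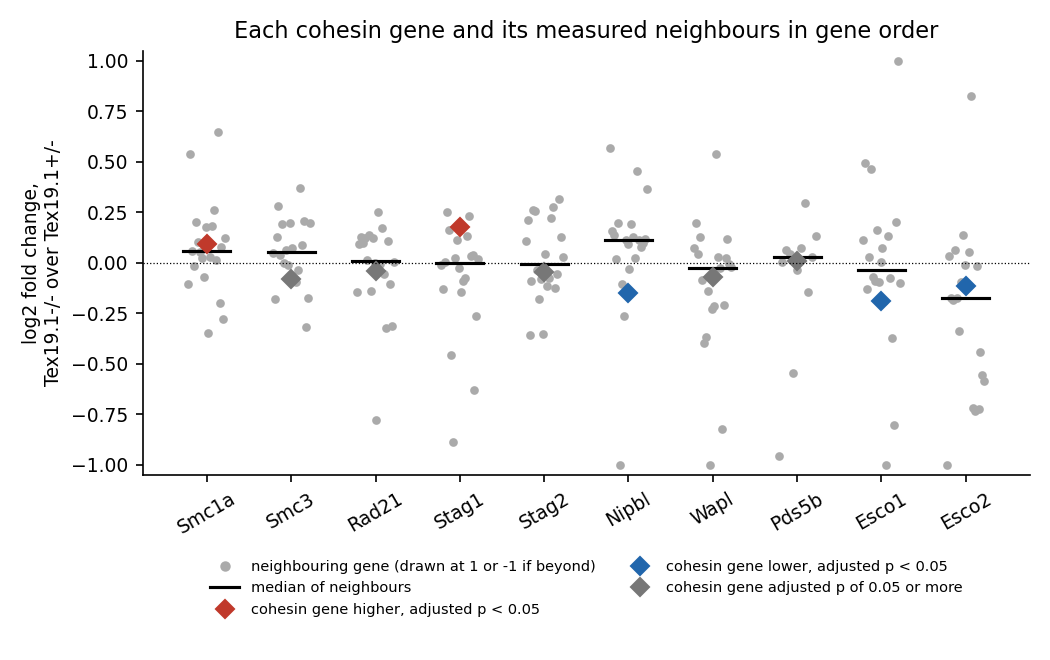
Log2 fold change (y axis) of each cohesin gene (diamond, coloured by its call) and of up to 10 measured genes on each side of it (grey points, with 5 of 191 drawn at the axis limits), with black bars for the neighbours' medians. Nipbl lies below a raised neighbourhood, and Esco2 lies within a lowered one.

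The sequences of the members were compared with all annotated transcripts, since reads shared with another gene can be lost or misplaced. Of the stretches of 75 bases in the longest coding transcript, 0 were shared with any other annotated gene for 8 members, Stag1 and Stag2 included, and 0.38% were shared for Smc3. For Esco1 the share was 7.81%, all with the gene Gm7054, so reads from these stretches alone cannot be assigned to one of the 2 genes. Among annotated exons, 28 bases of Stag2 overlap Gm37564 on the opposite strand, which is 0.34% of Stag2 exon sequence, and the other 9 members overlap no gene.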

How the data were processed

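RNA of 6 libraries, 3 of each genotype, was made with a stranded mRNA kit and sequenced in pairs, per the labels' protocols. Per the submitters' processing notes, reads were handled with TopHat2 2.1.0 and Trim Galore 0.4.1, and edgeR and HTSeq 0.11.2 are also listed, with the build mm10. The version and test of edgeR, the annotation, the strand setting and the low-count filter were not given in the sources used here. Each row of the table that the authors deposited holds a gene symbol, its log2 fold change, its mean log2 CPM, its p-value and its adjusted p-value, per the file headers. The lowest mean was 1.82 log2 CPM, so weaker genes had been removed. The deposited adjusted p-values equal Benjamini-Hochberg values within 6.7e-05 and imply 10129 tests.

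The set of 10 genes was drawn up by function and the lists by role, both with earlier results of these data known, and rows were then taken by symbol. A count model had been planned for tables of counts. With no values per library the authors' adjusted p at a threshold of 0.05 stands in its place, and depth is unknown. The standard error behind each interval is the fold change divided by the normal z of its p-value. Levels per genotype assume that the deposited mean is the plain mean of both groups. Levels per kilobase use the longest coding transcript of GENCODE M21 (GRCm38, the assembly that mm10 names). By symbol 9587 genes matched, 135 matched through older symbols and 406 did not match. Pairs of genes (6 in all) were compared by subtraction, with approximate 95% intervals and no p-value. These intervals take the errors of both genes as independent and are not adjusted for the number of pairs.

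Named genes are all members, every measured gene of the cohesin cofactor and meiotic lists, Tex19.1, paralogs of members, and up to 4 genes with the smallest p from each other list. Of the ES cell, endoderm and fibroblast lists, the genes named are Zfp42 at 0.36, Lin28a at 0.35, Sox2 at 0.23, Klf4 at -0.20, Col4a1 at -2.01, Col4a2 at -2.23, Cubn at -2.93, Lama1 at -1.19, Fn1 at 0.23, Vim at -0.33 and Fbn1 at -0.76 in the authors' deposited table. The endoderm genes not measured, and Smc1b, Rad21l and Gata6, were named after values were seen. So were the replication genes named beyond the 4 with the smallest p. One gene of the cofactor list is not reported here. Calculations used Python 3.11.15, scipy 1.17.1 and statsmodels 0.14.6, and were tested on simulated data.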

Additional observations from a re-analysis of the deposited data

How the results depend on the processing

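The 2 members called higher and 3 called lower were the same genes with genes of at least 16 CPM only, with fold changes centred on the median of all genes, and with a lowess trend (span 0.3) on GC content and transcript length subtracted. At an adjusted p under 0.01, 1 member was called higher (Stag1) and 2 lower (Nipbl, Esco1), so Smc1a and Esco2 no longer passed. With Bonferroni adjustment 0 were called higher and 0 lower, the smallest such p being 0.224 for Stag1. The fold changes of all 10 members kept their direction and call under centring and under the trend, where Nipbl stood at -0.10 (adjusted p = 0.0261) and Smc3 had adjusted p-values of 0.0506 and 0.0901. Of 38 other genes named under the rule above, Slf2 at 0.00312 and Zfp609 at 0.0237 changed sign with the trend subtracted. Rfc3 at 0.08 and Usp37 at -0.07 no longer passed with it subtracted. The cause was not tested. At an adjusted p under 0.01, an alternative added after seeing the data, cofactors called lower went from 3 to 1, replication genes called higher from 8 to 5, and condensin and SMC5/6 genes called higher from 5 to 3. No paired analysis was possible because the table holds 1 comparison and no values per library. For the same reason leaving out each replicate was not run, and depth cannot be stated.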
